A study of Mus musculus with 18 samples.

Results

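The annexin family was described in the livers of 18 mice through the 9 genes Anxa1, Anxa2, Anxa3, Anxa4, Anxa5, Anxa6, Anxa7, Anxa11 and Anxa13. They were picked by gene name from a table of 54532 genes, and 8 of the 9 had a mean of at least 1 FPKM (fragments per gene length and library size) over the 18 mice, as did 10216 genes in all. Anxa13 was below that level, so it was described but not tested across genes. The mice were male C57BL/6J, 6 weeks old at the start, in 3 groups of 6. CHOW mice ate normal chow, HFD mice ate a high-fat diet and received saline, and SZ-A mice ate the high-fat diet and received Ramulus Mori (Sangzhi) alkaloids, an extract of mulberry twigs. The diet ran for 14 weeks before treatment, and treatment lasted 6 weeks by the study's methods and 8 weeks by the deposited text. The dose and route of the sequenced mice are not given in the sources used here. One mouse, CHOW6, is titled as a chow mouse although its diet label reads high-fat diet, and it was kept in CHOW.

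Annexins are proteins that bind phospholipid membranes when calcium is present, through a repeated core domain, and differ mainly in their amino-terminal ends. Those ends carry the docking sites for partners, above all small calcium-binding S100 proteins. In the liver, annexins take part in the movement of vesicles, the repair of the plasma membrane, the recognition of dying cells and the limitation of inflammation, and several are more abundant in bile duct, immune and mesenchymal cells than in hepatocytes.

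The members lie on 8 chromosomes of build mm10. The table places Anxa1 (ENSMUSG00000024659) at chr19:20373428-20390944 on the minus strand, Anxa2 (ENSMUSG00000032231) at chr9:69453620-69491795 on the plus strand and Anxa3 (ENSMUSG00000029484) at chr5:96793339-96845966 on the plus strand. It has Anxa4 (ENSMUSG00000029994) at chr6:86736840-86793584 on the minus strand, Anxa5 (ENSMUSG00000027712) at chr3:36448923-36475894 on the minus strand and Anxa6 (ENSMUSG00000018340) at chr11:54979108-55033445 on the minus strand. It places Anxa7 (ENSMUSG00000021814) at chr14:20455260-20480133 on the minus strand, Anxa11 (ENSMUSG00000021866) at chr14:25842156-25886804 on the plus strand and Anxa13 (ENSMUSG00000055114) at chr15:58341471-58389244 on the minus strand. Anxa7 and Anxa11 share chromosome 14, and all but Anxa13 are classed as protein-coding.

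Poly-A RNA of whole liver was sequenced, and 17163191 to 20493907 fragments fell on genes per mouse. The 9 annexins together had 5598 to 12102 fragments a mouse. The tissue label was checked against 8 hepatocyte markers, whose FPKM summed to 28916 to 60702 a mouse, with none at 0. In whole tissue, fewer cells of a type and less RNA per cell cannot be told apart, and this holds for every level below. Each title names a separate sample of a group, and the p-values measure the spread between these samples.

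The start regions of the called members that had an entry are shown because they hold the sequence around the start of transcription of the genes that differed between groups. They are RefSeq windows of build GRCm38.p6, 250 bases before to 50 bases after the start, and 6 of the 9 members had an entry. Capitals mark the motifs TATAAA (the TATA box), CCAAT (the CCAAT box), GGGCGG (the GC box) and TGANTCA (the AP-1 type site). Both strands were searched, so that CCGCCC is a GC box read on the other strand. Anxa2 lies at chr9:69453433-69453732 on the plus strand, Anxa4 at chr6:86793535-86793834 on the minus strand, Anxa5 at chr3:36475838-36476137 on the minus strand and Anxa11 at chr14:25841905-25842204 on the plus strand.
Anxa2: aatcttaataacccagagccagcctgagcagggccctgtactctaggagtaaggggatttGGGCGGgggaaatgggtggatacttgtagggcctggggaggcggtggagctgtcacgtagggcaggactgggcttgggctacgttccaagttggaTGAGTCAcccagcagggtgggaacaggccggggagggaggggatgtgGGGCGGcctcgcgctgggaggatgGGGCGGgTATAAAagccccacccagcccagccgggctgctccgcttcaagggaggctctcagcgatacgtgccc
Anxa4: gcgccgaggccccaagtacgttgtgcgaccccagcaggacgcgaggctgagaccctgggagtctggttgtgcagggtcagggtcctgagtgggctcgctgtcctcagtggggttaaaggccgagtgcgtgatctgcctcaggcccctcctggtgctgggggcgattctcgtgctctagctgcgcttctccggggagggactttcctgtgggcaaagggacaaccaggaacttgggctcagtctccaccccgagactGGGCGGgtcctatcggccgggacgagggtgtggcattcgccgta
Anxa5: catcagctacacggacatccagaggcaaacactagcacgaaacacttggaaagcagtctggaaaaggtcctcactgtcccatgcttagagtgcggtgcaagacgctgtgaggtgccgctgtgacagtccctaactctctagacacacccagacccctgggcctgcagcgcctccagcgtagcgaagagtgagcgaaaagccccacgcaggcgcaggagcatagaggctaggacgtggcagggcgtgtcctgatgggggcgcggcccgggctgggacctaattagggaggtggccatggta
Anxa11: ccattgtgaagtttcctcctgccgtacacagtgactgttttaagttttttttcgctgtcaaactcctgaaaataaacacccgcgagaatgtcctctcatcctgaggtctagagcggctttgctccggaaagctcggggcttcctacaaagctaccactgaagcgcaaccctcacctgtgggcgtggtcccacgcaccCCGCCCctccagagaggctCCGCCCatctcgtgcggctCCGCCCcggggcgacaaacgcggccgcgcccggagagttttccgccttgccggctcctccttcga
The Anxa2 window held a TATAAA that began 17 bases before the start, 3 copies of GGGCGG and 1 TGANTCA, and no motif overlapped another. Anxa11 held 3 copies of GGGCGG, Anxa4 held 1 copy, and Anxa5 held none of the 4 motifs. Of 32851 windows of the same length, 13.6% held TATAAA, 37.4% CCAAT, 35.7% GGGCGG and 7.81% TGANTCA. Of the 2 remaining windows, that of Anxa1 held TATAAA, which began 32 bases before the start, and that of Anxa7 held 1 GGGCGG. A match of letters is a description and does not show a bound site.

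The levels spanned a wide range, and 3 members made up most of the family's transcripts. Anxa5, the phosphatidylserine-binding annexin used as a probe of dying cells, had the highest group mean in every group, at 39.7 ± 3.86 FPKM in CHOW mice (SD, n = 6). Anxa6, a large annexin with a doubled core that tethers membranes and the cytoskeleton, followed at 37.2 ± 2.64 FPKM. Anxa7, which binds membranes of secretory granules, had 20.1 ± 2.11 FPKM. Together these 3 held 84.7% to 88.7% of the summed annexin FPKM in CHOW mice, 77.7% to 81.8% under HFD and 81.1% to 83.7% under SZ-A. The HFD shares were all below the CHOW shares. The summed annexin level was 112 ± 4.27 FPKM under chow (SD, n = 6), 152 ± 28.7 FPKM under HFD and 122 ± 12.9 FPKM under SZ-A.

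Anxa4 came next in CHOW, at 6.59 ± 0.770 FPKM, and Anxa11, Anxa2, Anxa1, Anxa3 and Anxa13 followed in that order, from 2.90 to 0.601 FPKM (n = 6). The ranges of Anxa5 and Anxa6 overlapped in every group, so their order was not separated beyond the spread between mice. In CHOW mice the neighbours Anxa11 and Anxa2, Anxa2 and Anxa1, and Anxa1 and Anxa3 also overlapped. The place of Anxa2 moved most, from rank 6 in CHOW to rank 4 in HFD and rank 5 in SZ-A mice. In HFD mice its range overlapped that of Anxa4, which ranked just below it. In SZ-A mice it overlapped those of Anxa4 and Anxa11.

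**Figure D1:**
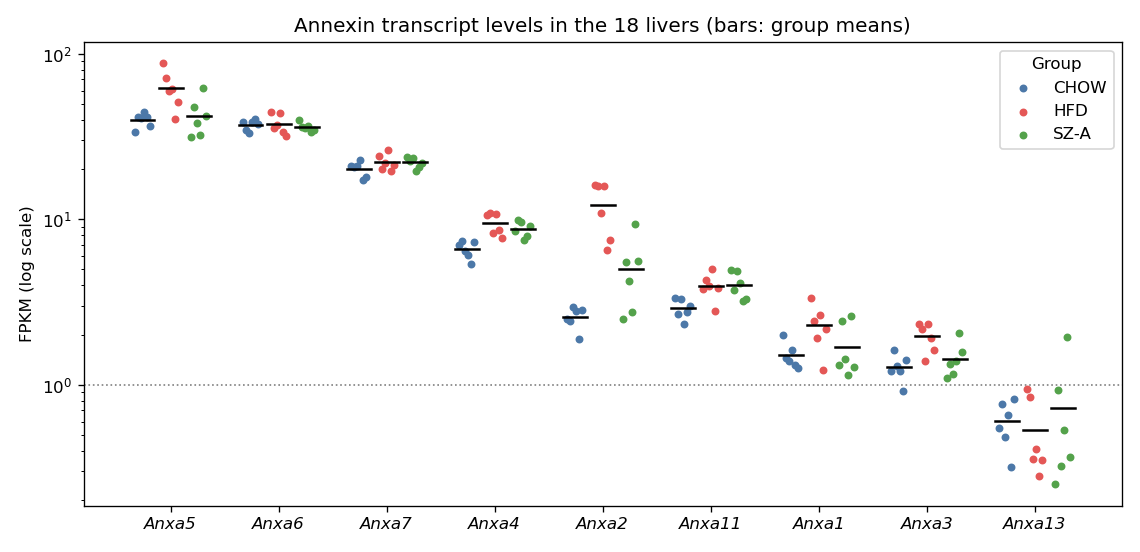
FPKM of the 9 annexins on a log axis, with a point for each mouse and a bar for each group mean, and a dotted line at 1 FPKM. The 6 HFD mice sit above the 6 CHOW mice for Anxa2 and Anxa4, the 3 groups lie together for Anxa6 and Anxa7, and most mice lie under the dotted line for Anxa13.

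The first comparison asked how a high-fat diet changed the liver, through HFD against CHOW mice. Anxa2, Anxa3, Anxa4, Anxa5 and Anxa11 were higher in HFD mice, no member was lower, and Anxa1, Anxa6 and Anxa7 were not called. Calls were made with limma on log2(FPKM + 0.1) at an adjusted p (Benjamini-Hochberg over the 10216 genes) under 0.05 and a fold change over 1.2. Thus 5 of the 8 tested members were called, all higher, against 20.2% of all genes called and 10.7% called higher. The members were chosen with earlier results of these data known. This share and the later ones are thus a description and no independent support. The median log2 fold change was 0.52 over the 8 members and -0.03 over all genes tested. The added 0.1 understates the fold changes of low genes.

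Anxa2, which pairs with S100a10 at the plasma membrane and serves as a surface receptor for plasminogen, differed most. Its FPKM ranged from 1.89 to 2.96 in CHOW mice (median 2.64) and from 6.50 to 16.1 in HFD mice (median 13.4). Every HFD mouse was above every CHOW mouse, and HFD1, HFD2 and HFD4 were near 16 FPKM while HFD5 and HFD6 were the lowest of the group. The log2 fold change was 2.12 ± 0.23 (SE), with a 95% interval of 1.63 to 2.61, and the limma adjusted p was 8.95e-05. Anxa2 was the 39th gene of the 10216 by p. Leaving out any mouse gave log2 fold changes of 2.02 to 2.28.

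Anxa5 ranged from 33.7 to 44.2 FPKM in CHOW mice (median 41.1) and from 40.6 to 87.4 FPKM in HFD mice (median 60.4). HFD1 was the highest and 5 of the 6 HFD mice were above every CHOW mouse, while HFD5 lay inside the CHOW range. The log2 fold change was 0.60 ± 0.15 (SE), with a limma adjusted p of 0.0145. Anxa1, the glucocorticoid-induced annexin that limits neutrophil entry through formyl peptide receptors, ranged from 1.26 to 2.01 FPKM in CHOW (median 1.42) and from 1.22 to 3.36 FPKM in HFD mice (median 2.29). Of the HFD mice, 4 were above every CHOW mouse and HFD5 was below all of them. Its log2 fold change of 0.52 ± 0.20 (SE) was not called, at a limma adjusted p of 0.0771. Without HFD5 the log2 fold change was 0.68 and it was called, at a limma adjusted p of 0.00888. Without HFD1, HFD2 or HFD4 it was 0.40, 0.49 and 0.47, at limma adjusted p of 0.155, 0.137 and 0.147. Over all alternative fits the limma adjusted p of Anxa1 ran from 0.00888 to 0.174. Anxa1 was also called with every mouse scaled to one FPKM total (limma adjusted p 0.0387), with voom on plain fragment totals (0.049) and with sample weights (0.0157). The first of these scalings raised the median of all genes by 0.19 and voom on plain totals by 0.16, and relative to that median Anxa1 was 0.55 and 0.58, against 0.56 before.

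Anxa3, an annexin found in neutrophils and in injured or progenitor-like liver epithelium, was low throughout. It ranged from 0.915 to 1.62 FPKM in CHOW (median 1.26) and from 1.39 to 2.34 FPKM in HFD mice (median 2.06). All but HFD3 were above every CHOW mouse, and the log2 fold change was 0.58 ± 0.16 (SE) with a limma adjusted p of 0.0194.

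Anxa4, an annexin of secretory and bile duct epithelium that orders lipids in membranes, rose less than Anxa2 but without overlap. It ranged from 5.38 to 7.35 FPKM in CHOW (median 6.69) and from 7.68 to 10.97 FPKM in HFD mice (median 9.62). Its log2 fold change was 0.51 ± 0.11 (SE), with a limma adjusted p of 0.00641. Anxa2 and Anxa4 were thus the 2 members whose groups did not overlap, with HFD higher, against 5.48% of all genes. Anxa11, which links RNA granules to lysosomes and works in vesicle transport from the endoplasmic reticulum, ranged from 2.33 to 3.34 FPKM in CHOW (median 2.87) and from 2.78 to 4.99 FPKM in HFD mice (median 3.91). HFD4 was the highest, 5 HFD mice were above every CHOW mouse and HFD5 was not. Its log2 fold change was 0.42 ± 0.13 (SE) with a limma adjusted p of 0.0365. This call was lost when CHOW2, CHOW4, CHOW5, HFD1, HFD2, HFD3, HFD4 or HFD6 was left out, with log2 fold changes of 0.35 to 0.43 and limma adjusted p of 0.0523 to 0.0784 in those fits, and it was lost without a filter on low values, at a limma adjusted p of 0.0834.

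Anxa6 and Anxa7 showed the smallest differences. Anxa6 ranged from 33.4 to 40.2 FPKM in CHOW (median 38.2) and from 31.7 to 44.3 FPKM in HFD mice (median 36.3). HFD mice lay on both sides of the CHOW range, with a log2 fold change of 0.01 and a 95% interval of -0.19 to 0.21. Anxa7 ranged from 17.2 to 22.9 FPKM in CHOW (median 20.7) and from 19.5 to 26.4 FPKM in HFD mice (median 21.7), and 2 HFD mice were above every CHOW mouse. Its log2 fold change was 0.14, with an interval of -0.06 to 0.35 and a limma adjusted p of 0.30.

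The ratio of a member to Anxa6 in the same mouse carries no library scaling. The Anxa2 level was 4.69% to 8.88% of the Anxa6 level in CHOW mice (median 7.10%) and 19.4% to 44.2% in HFD mice (median 32.9%). The groups did not overlap on this ratio. The Anxa4 level was 13.4% to 21.2% of Anxa6 in CHOW (median 18.6%) and 22.3% to 30.7% in HFD mice (median 24.3%), again without overlap. For Anxa11 the shares were 6.00% to 9.94% (median 7.83%) and 8.28% to 12.2% (median 11.03%), and these overlapped.

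**Figure D2:**
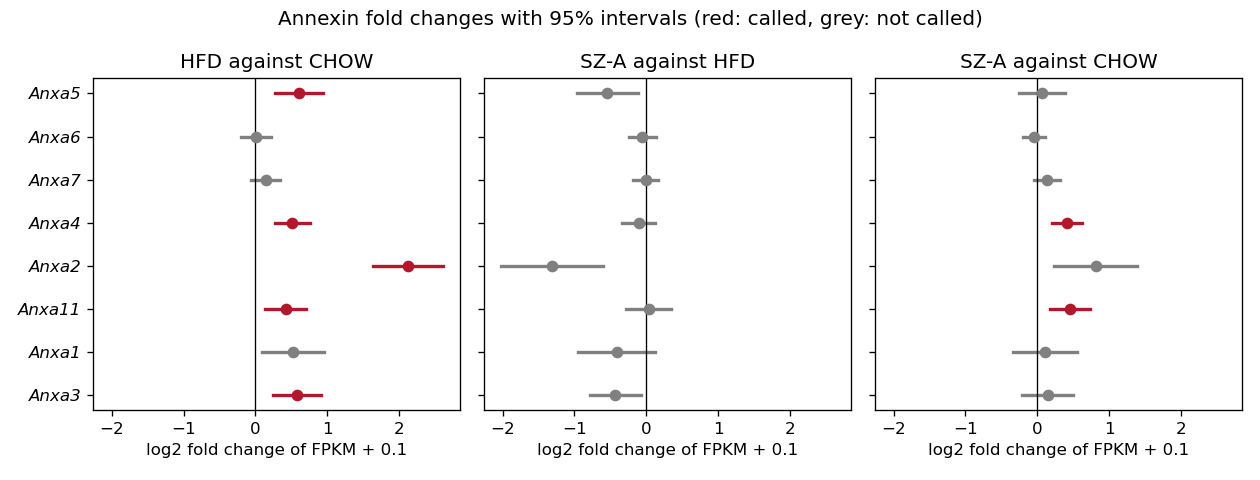
Log2 fold change of FPKM + 0.1 for the 8 tested annexins in each comparison (points), with 95% intervals (lines), red where called and grey where not. Of the members, 5 are called in HFD against CHOW, 0 in SZ-A against HFD and 2 in SZ-A against CHOW, and Anxa2 has the point farthest from 0 in each panel.

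The second comparison asked what SZ-A changed under the high-fat diet, through SZ-A against HFD mice. No tested annexin was called by limma, and 3 of the 8 had an unadjusted p under 0.05, all with lower values in SZ-A mice. No member's groups were free of overlap, against 1.28% of all genes without overlap. Over all genes tested, 0.147% were called and 14.8% had an unadjusted p under 0.05. The 15 genes called became 233 with sample weights. The paper reports more called genes for these groups, from DESeq2 at the same thresholds. The median log2 fold change was -0.26 over the members and 0.03 over all genes. The HFD mice are the same ones as in the first comparison, so the opposite signs of the 2 comparisons are not independent of each other.

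Anxa2 had the largest difference of the members. It ranged from 2.48 to 9.35 FPKM in SZ-A mice (median 4.90), with SZ-A1 and SZ-A4 inside the CHOW range and SZ-A5 above the lowest HFD mice. Of the SZ-A mice, 5 were below every HFD mouse. The log2 fold change was -1.31 ± 0.33 (SE), with a 95% interval of -2.03 to -0.60 and a limma adjusted p of 0.105, so it was not called. Scaling every mouse to one FPKM total gave a limma adjusted p of 0.0473, and sample weights, which give noisier mice less say, gave 0.0248. Relative to the median of all genes, Anxa2 was -1.34 both before and after the scaling. Over all alternative fits the log2 fold change stayed between -1.55 and -1.14 and the adjusted p between 0.0248 and 0.232. As a share of Anxa6, Anxa2 was 6.22% to 27.7% in SZ-A mice (median 13.7%), and only SZ-A5 reached into the HFD range.

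Anxa5 ranged from 31.6 to 61.7 FPKM in SZ-A mice (median 40.3). SZ-A1, SZ-A3 and SZ-A4 were below every HFD mouse, and SZ-A5 was the highest. The log2 fold change was -0.54 ± 0.19 (SE) with a limma adjusted p of 0.215, and sample weights alone called it, at -0.69 and an adjusted p of 0.0465. Anxa3 ranged from 1.09 to 2.04 FPKM in SZ-A mice (median 1.37), with a log2 fold change of -0.43 and a limma adjusted p of 0.242. Anxa1 ranged from 1.14 to 2.61 FPKM (median 1.37), and its log2 fold change was -0.42 with an adjusted p of 0.467 by limma. SZ-A2 and SZ-A5 were the SZ-A mice with more than 2 FPKM of Anxa1, and the others lay inside the CHOW range or below it.

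Anxa4, Anxa6, Anxa7 and Anxa11 had values in SZ-A mice close to those of HFD mice. Anxa4 ranged from 7.50 to 9.84 FPKM in SZ-A mice (median 8.83), with a log2 fold change of -0.11 and a 95% interval of -0.34 to 0.13. Anxa11 ranged from 3.20 to 4.94 FPKM (median 3.94), with a log2 fold change of 0.03 and an interval of -0.28 to 0.34, and its sign turned with scaling to one FPKM total (-0.145) and with voom on plain fragment totals (-0.084). Those scalings moved the median of all genes by -0.17 and -0.11, and relative to that median Anxa11 was 0.0037 and 0.0039, against 0.004 before. For both genes the interval leaves out a change of the size of the Anxa2 point estimate. Anxa6 ranged from 33.8 to 39.9 FPKM (median 35.7) and its interval was -0.25 to 0.14. Anxa7 ranged from 19.7 to 23.9 FPKM (median 22.3) and its interval was -0.18 to 0.17.

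The third comparison set SZ-A mice against CHOW mice, which differ in both diet and treatment. Anxa4 and Anxa11 were called higher in SZ-A mice and no member was called lower. These were 2 of 8 members, against 9.6% of all genes called and 5.31% called higher. The median log2 fold change was 0.14 over the members and -0.01 over all genes.

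Every SZ-A mouse was above every CHOW mouse for Anxa4, and Anxa4 was the only such member, against 2.83% of all genes. The log2 fold change of Anxa4 was 0.41 ± 0.10 (SE), with a limma adjusted p of 0.0194. That call was lost without SZ-A3, at 0.38 and a limma adjusted p of 0.0522, and after scaling to one FPKM total, at 0.42 and 0.0632. As a share of Anxa6, Anxa4 was 20.4% to 27.4% in SZ-A mice (median 24.9%), and the lowest SZ-A value lay inside the CHOW range.

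Anxa11 had 4 SZ-A mice above every CHOW mouse and none below the CHOW range. Its log2 fold change was 0.45 ± 0.13 (SE), with a limma adjusted p of 0.0439. The call was lost without CHOW2, CHOW3, CHOW4, CHOW5, CHOW6, SZ-A1, SZ-A2, SZ-A3 or SZ-A4, where log2 fold changes were 0.39 to 0.49 and limma adjusted p 0.0502 to 0.102. It was also lost after scaling to one FPKM total, at a limma adjusted p of 0.0721, and without a filter on low values, at 0.115. SZ-A1 and SZ-A3 had the highest levels of Anxa11 in the group, whereas SZ-A5, highest for Anxa2 and Anxa5, had the lowest.

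Anxa2 was not called against CHOW, at a log2 fold change of 0.81 ± 0.27 (SE) and a limma adjusted p of 0.0733, although 4 SZ-A mice were above every CHOW mouse. It was called without SZ-A1, at 0.98 and an adjusted p of 0.0319 by limma, and without SZ-A4, at 0.95 and an adjusted p of 0.0429 by limma. Leaving out any mouse gave log2 fold changes of 0.60 to 0.98. Over all alternative fits the limma adjusted p of Anxa2 ran from 0.0319 to 0.206. Anxa5 had a log2 fold change of 0.06 with a 95% interval of -0.26 to 0.38. Anxa1 had 0.11 with an interval of -0.33 to 0.55, and Anxa3 had 0.14 with an interval of -0.21 to 0.50. Anxa6 and Anxa7 had -0.04 and 0.14.

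Anxa13, an annexin of intestinal and kidney epithelium, was counted with 6 to 46 fragments a mouse, and the files class it as a processed transcript. It ranged from 0.321 to 0.825 FPKM under chow, with a median of 0.604, from 0.280 to 0.948 FPKM under HFD, with a median of 0.383, and from 0.250 to 1.95 FPKM under SZ-A, with a median of 0.451. The 3 groups overlapped and SZ-A5 stood highest. Exact permutation tests of the log2 difference gave a two-sided p of 0.472 for HFD against CHOW, 0.667 for SZ-A against HFD and 0.976 for SZ-A against CHOW, where the smallest p that 924 splits allow is 0.00216.

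**Figure D3:**
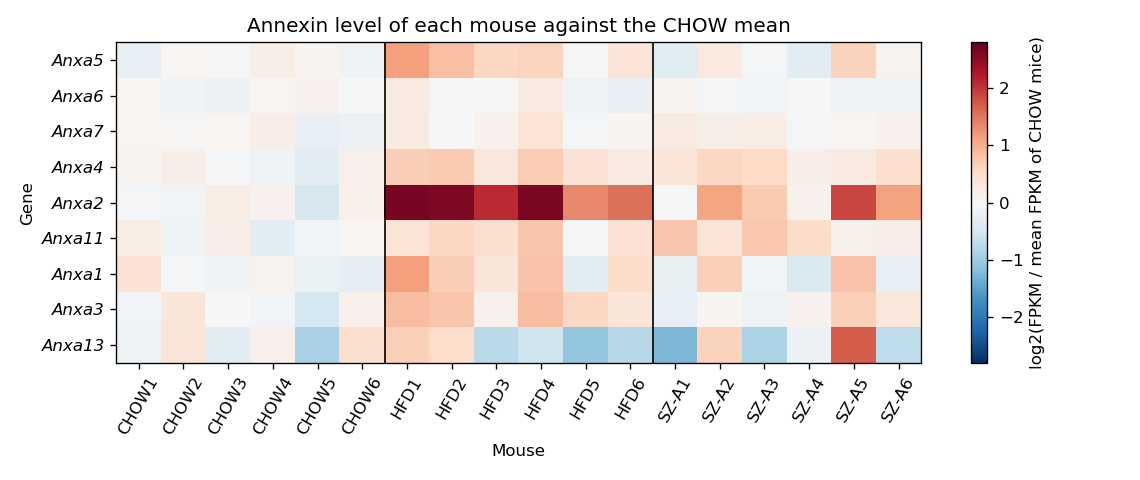
Log2 ratio of each mouse's FPKM to the CHOW mean, with a row for each annexin and a column for each mouse, red above and blue below the CHOW mean, and black lines between groups. Anxa2 is darkest in HFD1, HFD2 and HFD4, HFD5 is the palest HFD column for Anxa5 and Anxa11, and SZ-A5 stands out among SZ-A mice for Anxa2 and Anxa13.

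In HFD and SZ-A mice, but not in CHOW mice, Anxa1, Anxa2 and Anxa5 rose and fell together from mouse to mouse. This was described with the Pearson correlation of each mouse's deviation from its group mean on the log2(FPKM + 0.1) scale, over 18 mice, with no test, since the values of a mouse share a library. Of 36 pairs of members, 29 had a positive correlation and 10 were above 0.5, with a median of 0.34. The highest was Anxa2 with Anxa5, at 0.86 (Spearman's rho 0.78), and it was 0.80 without SZ-A5 and SZ-A1, the mice farthest out for Anxa2. Taken group by group, with 6 mice each, it was -0.10 in CHOW, 0.89 in HFD and 0.98 in SZ-A mice. Anxa1 with Anxa5 had 0.79 and Anxa1 with Anxa2 had 0.75, which became 0.63 and 0.59 without HFD5 and SZ-A5. In CHOW mice alone these pairs had -0.39 and 0.07, against 0.91 and 0.83 in HFD and 0.89 and 0.79 in SZ-A mice. Anxa13, with few fragments, had 0.72 with Anxa1, 0.76 with Anxa2 and 0.76 with Anxa5 over all mice. In CHOW mice alone these were 0.01, 0.65 and -0.16. In HFD mice every pair of members was positive, from 0.20 to 0.91. Anxa3 with Anxa4 had 0.89 there and Anxa6 with Anxa7 had 0.85. In SZ-A mice Anxa3 had 0.81 with Anxa2, 0.80 with Anxa5 and 0.53 with Anxa1. Anxa13 had 0.86 with Anxa1, 0.78 with Anxa2 and 0.87 with Anxa5 there. Going together in HFD or SZ-A mice was thus not particular to Anxa1, Anxa2 and Anxa5. In CHOW mice Anxa2 with Anxa3 had 0.64. For some other pairs the value over all mice joined opposite signs. Anxa2 with Anxa6 had 0.14 over all mice, from -0.55 in CHOW, 0.81 in HFD and -0.88 in SZ-A mice. Anxa5 with Anxa11 had -0.16, from -0.75 in CHOW, 0.55 in HFD and -0.77 in SZ-A mice. The differences between groups were not tested.

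The mice at the ends of the groups were often the same. HFD1 was the highest HFD mouse for Anxa1, Anxa2, Anxa3, Anxa5, Anxa6 and Anxa13. HFD5 was the lowest HFD mouse for Anxa1, Anxa2, Anxa5, Anxa7, Anxa11 and Anxa13. SZ-A5 was the highest SZ-A mouse for Anxa1, Anxa2, Anxa3, Anxa5 and Anxa13, and the lowest for Anxa6 and Anxa11.

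The genes whose pattern over the 18 mice was most like a called member were taken as the 3 highest Pearson correlations among all tested genes. For Anxa2 they were Lgals3 (0.97), Pkm (0.96) and Capg (0.96), which encode galectin 3, a pyruvate kinase and an actin-capping protein. For Anxa5 they were S100a11 (0.95), Tubb6 (0.91) and Cd63 (0.90), for Anxa3 they were Gnb1 (0.92), Ctss (0.90) and Cyba (0.89), and for Anxa4 they were Nln (0.94), Gsap (0.93) and Gnai2 (0.92). Anxa11 had lower values, with Tmlhe (0.83), Zfp143 (0.81) and Tnfrsf14 (0.80). After the group means were taken away, Lgals3 was still among the 3 closest to Anxa2 (0.86) with Ly6d (0.88) and Anxa5 (0.86), and S100a11 was still the closest to Anxa5 (0.92). The 3 closest to Anxa3 were the same genes in both, whereas none of the 3 closest to Anxa11 was shared.

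The S100 partners were read as a list of 4 genes, of which 3 were tested. S100a11, a partner of Anxa1 and Anxa2, ranged from 5.01 to 8.42 FPKM under chow, with a median of 6.82, from 6.55 to 37.5 FPKM under HFD, with a median of 16.2, and from 4.003 to 21.4 FPKM under SZ-A, with a median of 7.26. It was the one partner called in HFD against CHOW, with a log2 fold change of 1.24 ± 0.31 (SE) and a limma adjusted p of 0.0137. Of all genes, 20.2% were called there. HFD1 and SZ-A5 were the highest mice of their groups and HFD5 the lowest of its group, as for Anxa5.

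S100a10, the subunit that joins Anxa2 in a heterotetramer, was far more abundant than Anxa2, at 107 ± 22.5 FPKM under chow (SD, n = 6), 120 ± 27.4 FPKM under HFD and 103 ± 30.8 FPKM under SZ-A. Its ranges overlapped in all 3 groups, and its log2 fold change for HFD against CHOW was 0.16, with a 95% interval of -0.19 to 0.52. That interval does not reach the interval of Anxa2. S100a6 had a log2 fold change of 0.81 with a limma adjusted p of 0.118, and S100a4 was listed at 0 in all CHOW mice and had at most 5 fragments in any mouse. No S100 partner was called in SZ-A against HFD or in SZ-A against CHOW, against 0.147% and 9.6% of all genes called.

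**Figure D4:**
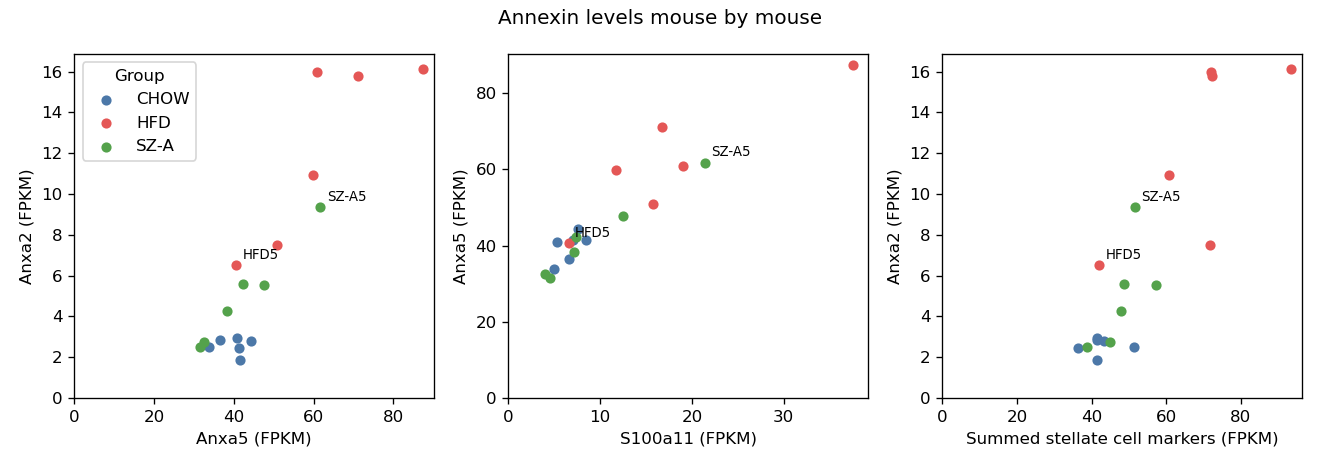
FPKM of Anxa2 against Anxa5 (left), Anxa5 against S100a11 (middle) and Anxa2 against the summed FPKM of 8 stellate cell markers (right), with a point for each mouse coloured by group. HFD5 is the lowest HFD mouse and SZ-A5 the highest SZ-A mouse for Anxa2, Anxa5 and S100a11.

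Other intracellular partners, such as the calcium-binding proteins Pdcd6, Pef1 and Sri, gave 4 tested genes of 6, and none of these 4 was called in any comparison. Of all genes, 20.2% were called in HFD against CHOW, 0.147% in SZ-A against HFD and 9.6% in SZ-A against CHOW. Ahnak, also of these 4, passed the filter on low values only through the HFD group. Its means were 0.938 FPKM in CHOW, 0.985 in SZ-A and 1.39 in HFD mice. Pla2g4a and Dysf, also of this list, averaged under 1 FPKM. In a fit without the filter on low values, Pla2g4a was called higher in HFD than in CHOW mice, at 0.54 and a limma adjusted p of 0.0301. In HFD against CHOW, the fit without that filter called 1117 of 27266 genes higher. Dysf was not called in that fit. Fpr1, a formyl peptide receptor, had a log2 fold change of 0.58 for HFD against CHOW and a limma adjusted p of 0.17, and Fpr2, the receptor for which Anxa1 is best known, was below 1 FPKM on average. Of the plasminogen system, 2 of 4 genes were tested. Plg, plasminogen itself, was called higher in SZ-A than in CHOW mice, at 0.30 and a limma adjusted p of 0.0464. In that comparison 5.31% of all genes were called higher. Plau, urokinase, had a log2 fold change of 1.11 for HFD against CHOW and a limma adjusted p of 0.0628. Its means were 0.846 FPKM in CHOW, 0.960 in SZ-A and 1.74 in HFD mice. It thus passed the filter on low values only through the HFD group, and its test is no independent support. Its receptor Plaur averaged under 1 FPKM, and in a fit without the filter on low values it was called higher in HFD than in CHOW mice, at 1.16 and a limma adjusted p of 0.00539.

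Genes for the recognition of phosphatidylserine, the lipid that Anxa5 also binds, gave 7 tested of 9. In HFD against CHOW 3 of the 7 were called higher and none lower, against 10.7% of all genes called higher. The list was chosen with earlier results of these data known, so its shares are a description and no independent support. These were Axl, a receptor kinase, with a log2 fold change of 0.96 (limma adjusted p 0.00219), its ligand Gas6 with 0.73 (limma adjusted p 0.0144), and the bridging protein Mfge8 with 0.48 (limma adjusted p 0.0478). In SZ-A against CHOW Axl (0.61, limma adjusted p 0.037) and Mfge8 (0.36, limma adjusted p 0.0181) were called higher, against 5.31% of all genes. In SZ-A against HFD none of the 7 was called, against 0.147% of all genes.

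The annexins outside the list, Anxa8, Anxa9 and Anxa10, were below 1 FPKM on average and were not tested with the others. Anxa8 had 2 to 6 fragments a mouse under chow, 5 to 28 under HFD and 6 to 17 under SZ-A. In a fit without the filter on low values, which took in 27266 genes, Anxa8 was called in SZ-A against CHOW, at a log2 fold change of 0.997 and a limma adjusted p of 0.0465. That fit called 307 genes higher. In HFD against CHOW the value of Anxa8 was 1.23 with a limma adjusted p of 0.0571. Anxa10 had fragments in 1 mouse, SZ-A5.

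Markers of other cell types moved with the groups too. In HFD against CHOW, 6 of 8 stellate cell markers and 2 of 4 tested markers of recruited macrophages were called higher. So were 2 of 7 Kupffer cell markers and 2 of 3 tested neutrophil markers, and 2 of 8 hepatocyte markers were called lower. Of all 10216 genes tested, 1092 (10.7%) were called higher and 970 lower. Only 3 of 6 neutrophil and 4 of 8 recruited macrophage markers passed the filter on low values, which used all 18 mice. Markers low in CHOW mice could pass it through the other groups, so these counts are no independent support. The same limit holds for the other marker lists with low sums and for SZ-A against CHOW. The summed recruited macrophage markers were 62.4 to 106 FPKM under chow, 139 to 206 FPKM under HFD and 82.6 to 144 FPKM under SZ-A. The stellate sums, in the same order, were 36.5 to 51.4, 41.9 to 93.5 and 38.9 to 57.1 FPKM. The neutrophil sums were 1.48 to 6.62, 5.97 to 20.6 and 4.61 to 18.1 FPKM, with Ly6g at 0 in all CHOW and all SZ-A mice.

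Adipocyte markers summed to 0.0447 to 7.54 FPKM under chow, 20.3 to 135 FPKM under HFD and 1.02 to 31.1 FPKM under SZ-A, with Lep at 0 in all CHOW mice and Lep and Retn at 0 in all SZ-A mice. HFD5 was the lowest HFD mouse for Anxa1, Anxa2, Anxa5, Anxa7, Anxa11 and Anxa13 but not for Anxa3, Anxa4 or Anxa6. It had the lowest stellate sum (41.9 FPKM) and the lowest neutrophil sum (5.97) of the HFD mice. Its Kupffer sum (273) and its hepatocyte sum (48070) were the highest of the HFD mice. SZ-A5 had a cholangiocyte sum of 17.0 FPKM against 6.24 to 6.85 in the other SZ-A mice. It also had the highest neutrophil, recruited macrophage and Kupffer (195) sums of its group. Its hepatocyte sum of 33959 FPKM was the lowest of its group. Between groups the cholangiocyte sums were 7.64 to 9.26 in CHOW and 5.51 to 8.64 FPKM in HFD mice, with none of its 7 markers at 0 in a whole group. In SZ-A against HFD, Cd68, a lysosomal protein of macrophages, was the only gene of the marker lists that was called, and it was lower, at -0.64 with a limma adjusted p of 0.0451. In SZ-A against CHOW, 2 of 3 tested neutrophil markers and 1 of 4 tested markers of recruited macrophages were higher. So were 1 of 8 stellate cell markers and the 1 tested marker of pancreas acini. Lower were 1 of 8 hepatocyte markers and 1 of 2 tested cholangiocyte markers. Of all 10216 genes tested, 542 (5.31%) were called higher and 439 lower. Beyond those named, HFD against CHOW called Lyve1 among 7 endothelial markers and Cfd, the 1 adipocyte marker tested, both higher, and none of the tested markers of cholangiocytes, smooth muscle, red blood cells or pancreas acini. No marker of T cells, B cells or mesothelial cells passed the filter on low values. The part of these markers in the annexin levels was not tested.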

How the data were processed

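Poly-A RNA of 18 livers was made into libraries that do not mark strand and sequenced as paired 150-base reads. Per the submitters' processing notes and methods, the authors used HISAT2 2.0.5, featureCounts 1.5.0-p3 and build mm10, and tested with DESeq2. The authors deposited FPKM per gene, and this column unit was used as deposited. FPKM times gene length gave whole fragments for 100% of values within 0.05 fragment, so depth was recovered. The library size in the deposited values was 0.933 to 1.14 times the fragments on genes of a mouse, so it was not that plain total.

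Each comparison was fitted on its own 12 mice in R 4.3.3 with limma 3.58.1 (lmFit, eBayes with trend) on log2(FPKM + 0.1) for genes averaging 1 FPKM or more over the 18 mice, without covariates, and checked on simulated data. Benjamini-Hochberg adjustment ran over all genes tested. Single values were tested with exact permutation tests. Intervals are 95%.

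Groups came from sample titles. The named genes were the 9 members, fixed partner and marker lists, and the 3 genes most alike to each called member. One partner list is not reported here. The members and lists were chosen with earlier results of these data known. The ratios to Anxa6 and the mice singled out were chosen after their values were seen. No pair of mice in a group was a duplicate. The library was not stranded, so reads of the antisense genes Gm16144 (Anxa2, at most 0.543 FPKM) and Anxa11os (Anxa11, at most 0.0906 FPKM) cannot be told apart from those of their partners. Alternatives changed the pseudocount, filter, scaling, thresholds, model and single mice.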

Additional observations from a re-analysis of the deposited data

How the results depend on the processing

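Of 591 alternative values for 24 fold changes, 540 kept their direction and side of the threshold. Most of these fold changes were not called to begin with. Of the other values, 23 lost a call, 10 gained one and 18 changed sign. The Anxa11 call was lost in 10 of 24 fits in HFD against CHOW and in 11 of 24 in SZ-A against CHOW. The Anxa4 call was lost in 2 of 25 fits in SZ-A against CHOW. The number of called annexins in HFD against CHOW was 5, and became 1 with a fold over 2, 3 with a mean FPKM of at least 5 and 4 to 6 without single mice. In SZ-A against HFD it was 0, and became 1 (Anxa2) after rescaling to a common sum per mouse and 2 (Anxa2 and Anxa5) with sample weights, and stayed 0 without single mice. In SZ-A against CHOW it was 2, and became 0 with a fold over 2, 1 without a filter, 1 with a mean of at least 5, 0 after rescaling to a common sum and 0 to 2 without single mice. Fewer members entered the fit with a mean of at least 5, and the other causes were not tested.

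Some fold changes near 0 changed sign. Without single mice, Anxa6 ran from -0.0384 to 0.0575 in HFD against CHOW, Anxa7 from -0.0453 to 0.0417 and Anxa11 from -0.0647 to 0.0994 in SZ-A against HFD, and Anxa1 from -0.0264 to 0.198 and Anxa5 from -0.057 to 0.136 in SZ-A against CHOW. Anxa11 was -0.145 after rescaling and -0.084 with voom on plain totals in SZ-A against HFD, where it was 0.0037 and 0.0039 relative to the median of all genes, against 0.004 before. With sample weights, SZ-A against CHOW gave -0.0068 for Anxa3 and -0.027 for Anxa5. Rescaling to a common sum moved the median of all genes by 0.19 in HFD against CHOW and by -0.17 in SZ-A against HFD, and relative to that median Anxa2 was 2.16 and -1.34. The same rescaling changed the genes called in SZ-A against HFD from 15 to 216, of which 10 were higher, and in HFD against CHOW from 2062 to 2434, of which 2100 were higher against 1092 before.

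The replicate numbers were not taken to pair the mice, since no comparison had every same-numbered pair above a correlation of 0.1. Those correlations of deviations were -0.117 to 0.0978 in HFD against CHOW, -0.0659 to 0.292 in SZ-A against HFD and -0.0428 to 0.112 in SZ-A against CHOW, and 1, 2 and 6 of 12 mice matched their own number best in the 3 comparisons. With the replicate block, 5, 0 and 2 annexins were called in HFD against CHOW, SZ-A against HFD and SZ-A against CHOW, with Anxa1 in place of Anxa11 in the first, and 1647, 0 and 922 genes. Depth limits Anxa1 and Anxa3, with as few as 54 fragments a mouse, and Anxa13, with as few as 6.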
